A study of Mus musculus with 34 samples.

Results

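Libraries labelled Tfh2_6e4 were compared with libraries labelled Tfh2_1e4, the upper and lower ends of the label numbers given for the culture code Tfh2. The comparison takes every library whose label names one of these groups, 6 of Tfh2_6e4 and 6 of Tfh2_1e4, which is 12 of the 34 libraries in the series. Both groups were naive CD4 T cells of C57BL/6 mice, cultured for 3.5 days on antibodies to CD3 and CD28 fixed to the plate and then sorted by flow cytometry for RNA. According to its title, the study is about how TGF-beta acts through c-Maf, a transcription factor, to set follicular helper (TFH) against TH17 fate. What the code Tfh2 means, what the numbers count, which cells the sort gate took and which cytokines were added are not stated in the labels, so the groups are called by their labels. The labels also do not say whether replicates came from separate mice or cultures, and p-values therefore measure only the spread between these libraries.

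A naive T cell that is activated through its antigen receptor takes up more glucose, copies its DNA and divides within days, and the cytokines around it steer it to a helper fate. TFH cells help B cells in follicles and are known for the receptors CXCR5, PD-1 and ICOS, while TH17 cells make interleukin 17 and carry the receptor CCR6. When oxygen is short, the factor HIF-1 is no longer marked for destruction by the prolyl hydroxylases, and it switches on genes for glucose uptake, glycolysis and adaptation to low oxygen. Activated T cells also raise HIF-1 through their antigen receptor and through growth signals, so the same genes respond to both.

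Total counts were 6610836 to 9247251 per Tfh2_6e4 library and 8272173 to 9245808 per Tfh2_1e4 library, and the mean number of genes with a count was 12420 in Tfh2_6e4 and 12630 in Tfh2_1e4. Levels are in CPM, the count of a gene per library total after normalization. All libraries held the T cell genes Cd3d, at 570.1 to 716 CPM (median 654) in Tfh2_6e4 and 371 to 475 CPM (median 413) in Tfh2_1e4, and Cd4, at 111 to 145 CPM (median 120.2) in Tfh2_6e4 and 63.9 to 93.7 CPM (median 84) in Tfh2_1e4. Of 6 T cell genes 5 were called higher in Tfh2_6e4, and Lck, the kinase of the antigen receptor, was lower (log2 fold change -0.71, adjusted p = 2.32e-06). Markers of B, myeloid, NK and erythroid cells were at or near 0, and those of dendritic and CD8 cells were low. The 5 B cell genes summed to 0 to 1.17 CPM in Tfh2_6e4 and 0 to 0.557 CPM in Tfh2_1e4, with Cd79a, Ms4a1 and Pax5 at 0 in all 12 libraries. The 6 myeloid genes summed to 0 to 1.72 CPM in Tfh2_6e4 and 0.218 to 1.32 CPM in Tfh2_1e4, and the 4 dendritic cell genes to 2.55 to 5.27 CPM in Tfh2_6e4 and 2.84 to 7.68 CPM in Tfh2_1e4. The 3 NK cell genes were at 0 in Tfh2_6e4 and summed to 0 to 0.0914 CPM in Tfh2_1e4. Itgam, Flt3, Zbtb46, Ncr1 and Klrb1c were at 0 throughout. The 2 CD8 genes summed to 3.85 to 11.2 CPM in Tfh2_6e4 and 4.12 to 6.85 CPM in Tfh2_1e4, and the 3 erythroid genes to 0 to 0.927 CPM in Tfh2_6e4 and 0 to 0.785 CPM in Tfh2_1e4. Genes that were high in the code TfhA were low in every one of the 12 libraries: Tbx21 was 0.293 to 1.77 CPM in Tfh2_6e4 and 0.548 to 1.96 CPM in Tfh2_1e4, against 22.1 to 37.7 CPM in TfhA_4e4. Nrn1, which encodes neuritin, was 18.2 to 30.5 CPM in Tfh2_6e4 and 1.08 to 7.25 CPM in Tfh2_1e4, against 282 to 398 CPM in TfhA_4e4. Tg, named after its values were seen, was 8.05 to 21.4 CPM in Tfh2_6e4 and 0.872 to 2.79 CPM in Tfh2_1e4. In TfhA_4e4 it was 104 to 118 CPM. Both Nrn1 and Tg were thus higher in Tfh2_6e4 than in Tfh2_1e4 but far from the TfhA_4e4 level.

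Library measures differed between the groups. The ribosomal RNA of mitochondria made up 10.18 ± 1.2% of the counts outside 2 very abundant identifiers in Tfh2_6e4 and 8.408 ± 1.48% in Tfh2_1e4 (SD, n = 6 each; exact two-sided permutation p = 0.0433). That difference missed 0.05 as a share of all counts (exact permutation p = 0.372) and without any 1 of 8 of the 12 libraries. Those 2 identifiers, which have no symbol in the annotation table, held 50.16 ± 1.99% of all counts in Tfh2_6e4 and 45.51 ± 3.37% in Tfh2_1e4 (exact permutation p = 0.0108). The normalization factor was 0.9319 ± 0.0571 in Tfh2_6e4 and 1.111 ± 0.0752 in Tfh2_1e4 (exact permutation p = 0.00433, where 0.00216 is the smallest p that 6 against 6 allow). These measures move with every gene result below, and their part in those results was not tested, apart from a fit with the mitochondrial share as a covariate.

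The groups differed across a large part of the transcriptome. Of 11357 genes tested with edgeR's quasi-likelihood test, 4889 (43.0%) passed an adjusted p of 0.05. Of these, 2538 (22.3% of the genes tested) were higher and 2351 (20.7%) lower in Tfh2_6e4, and 1145 (10.1%) were higher and 842 (7.41%) lower by more than 2-fold. With libraries scaled by their totals without the 2 abundant identifiers and with no composition factor, the split was 2110 higher and 3053 lower, since that scaling moved the median log2 fold change of all genes from -0.01 to -0.14. The 6 and 6 libraries did not overlap in CPM for 2747 genes (24.2%). A share near these percentages is the background for every list that follows. Correlations of log2 CPM between libraries were 0.9328 to 0.96 within the groups and 0.8569 to 0.8949 between them. In bulk RNA, a change in how many cells express a gene and a change in RNA per cell cannot be told apart.

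The genes that mark this comparison were Slc2a3, Selenbp1 and Enpp2, high in Tfh2_6e4, and Sox4 and Pdcd1, high in Tfh2_1e4. Slc2a3 (chr6:122727809-122802363, GRCm38.p6) encodes the glucose transporter GLUT3. It was at 375 to 445 CPM (median 419.6) in the Tfh2_6e4 libraries, against 8.59 to 12.4 CPM (median 11.4) in the Tfh2_1e4 libraries. The groups lay far apart, and the log2 fold change was 5.27 ± 0.16 (standard error; adjusted p = 5.07e-28), which is 38.6-fold. Selenbp1 (chr3:94933083-94944758), which encodes a selenium-binding protein with methanethiol oxidase activity, was at 39 to 62.4 CPM (median 50.6) in Tfh2_6e4 and 0 to 0.327 CPM (median 0.0981) in Tfh2_1e4. It was nearly silent at the lower end, with 2150 counts in all in Tfh2_6e4 and 7 in Tfh2_1e4, and its log2 fold change was 8.51 ± 0.39 (adjusted p = 2.95e-22). Enpp2 (chr15:54838901-54952789) encodes autotaxin, the secreted enzyme that makes lysophosphatidic acid. Its level was 64.8 to 108 CPM (median 94.7) in Tfh2_6e4 and 0 to 2.06 CPM (median 1.09) in Tfh2_1e4, again with no overlap (log2 fold change 6.45 ± 0.38, adjusted p = 1.12e-18).

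Sox4 (chr13:28948919-28953699), a transcription factor gene that TGF-beta induces in T cells, went the other way. It was at 14.4 to 29.3 CPM (median 20.4) in Tfh2_6e4 and 197 to 286 CPM (median 232) in Tfh2_1e4, so that every Tfh2_1e4 library was above every Tfh2_6e4 library (log2 fold change -3.41 ± 0.18, adjusted p = 7.86e-20). Pdcd1 (chr1:94038305-94052553) encodes the inhibitory receptor PD-1, a marker of TFH and of strongly stimulated T cells. It was at 13.3 to 30.2 CPM (median 22) in Tfh2_6e4 and 83.9 to 119.8 CPM (median 96.3) in Tfh2_1e4, also without overlap (log2 fold change -2.18 ± 0.17, adjusted p = 1.87e-14). The means of the intermediate numbers lay between those of the ends for all 5 genes. Mean Slc2a3 was 10.8, 62.7, 269.9 and 416 CPM at 1e4, 2e4, 4e4 and 6e4, and mean Sox4 was 235, 124, 58.2 and 22.1 CPM.

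**Figure D1:**
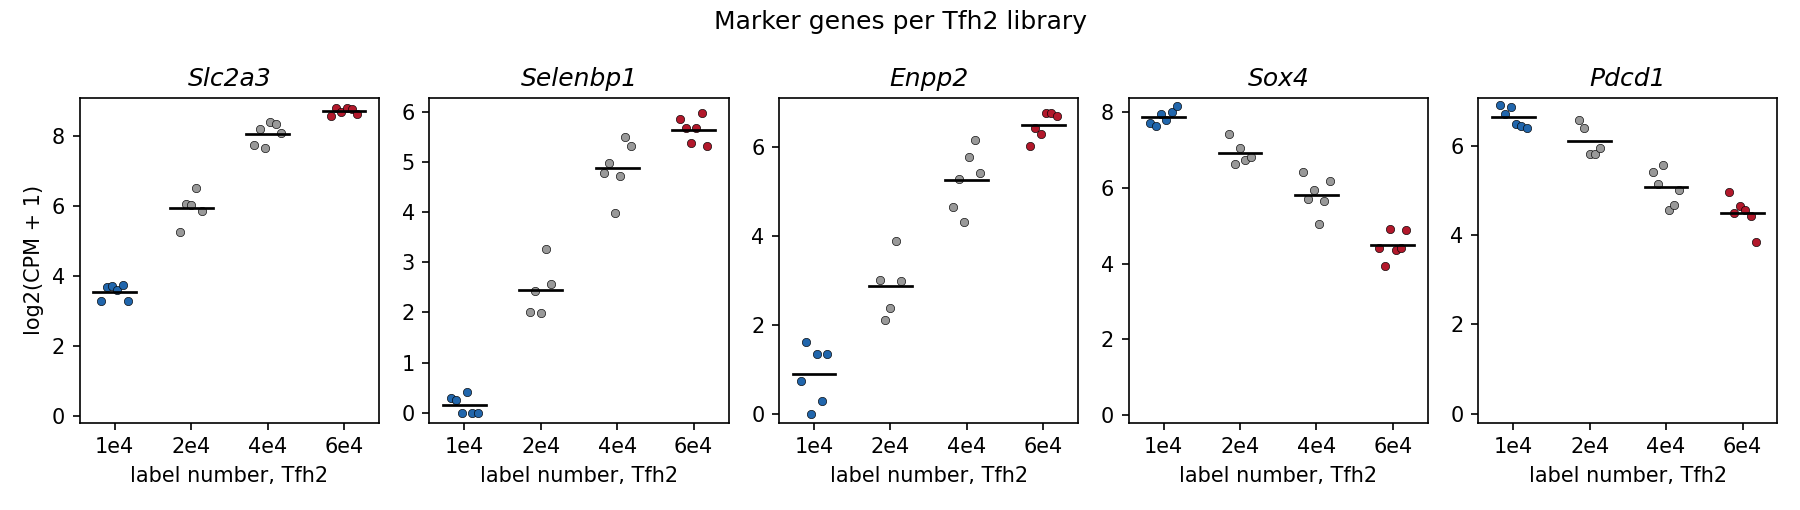
Level of the 5 marker genes as log2(CPM + 1) in each Tfh2 library (points) by label number, with the group mean as a line; 6 libraries at 1e4, 5 at 2e4, 6 at 4e4 and 6 at 6e4. Slc2a3, Selenbp1 and Enpp2 are higher and Sox4 and Pdcd1 lower at 6e4 than at 1e4, with the group means at 2e4 and 4e4 in between; for Selenbp1, Enpp2 and Pdcd1 single libraries at these numbers fall within the range of an end.

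RNA of most glycolysis genes and HIF target genes was higher in Tfh2_6e4. Of 22 glycolysis genes, all of them tested and the marker Slc2a3 among them, 19 rose and none fell (86.4%, against 22.3% of all genes). Their median log2 fold change was 1.25 beside -0.012 over all genes. Of 23 tested HIF targets outside glycolysis, 22 rose and 1 fell, with a median of 1.64. Of 9 tested oxygen sensing factors 6 rose and none fell, with a median of 1.21. Summed over the list, the glycolysis genes took 6750 to 7950 CPM per library in Tfh2_6e4 and 2730 to 3360 CPM in Tfh2_1e4. Egln1 and Egln3 stand in both of the last lists. The 3 glycolysis genes that did not pass were Pfkfb4 (log2 fold change 0.10), Eno1 (0.64) and Pgk1 (0.69). In Tfh2_6e4, Eno1 was at 7.75 to 31.6 CPM and Pgk1 at 1.39 to 15.8 CPM. Eno1 and Pgk1, like Gapdh, which rose, and other abundant enzymes, have processed copies in the genome that can take or share their reads. Whether this bears on their values was not tested.

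Promoter windows of genes that rose here and of cell cycle genes that fell are shown because both programs have a well-known DNA element, and the 6 were chosen for holding it. The windows of Adm, Vldlr, Vegfa and Pdk1 hold no ACGTG, and those of Fen1, Mcm5, Birc5, Plk1 and Mki67 no TTCCCGC. Each window runs from 250 bases before to 50 after the annotated start (RefSeq, GRCm38.p6), 5′ to 3′ on the strand of the gene. In the hypoxia windows the capitals mark ACGTG, the core of the hypoxia response element, read on either strand. ACGTG also lies within the E-box CACGTG that MYC and other factors bind, which holds it on both strands.
Bnip3: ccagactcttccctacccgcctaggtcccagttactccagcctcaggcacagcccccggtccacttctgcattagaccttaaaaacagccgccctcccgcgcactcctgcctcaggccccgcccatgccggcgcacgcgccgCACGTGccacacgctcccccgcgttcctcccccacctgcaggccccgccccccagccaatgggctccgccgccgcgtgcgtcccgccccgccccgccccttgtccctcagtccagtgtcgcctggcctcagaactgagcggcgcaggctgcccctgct
Pfkfb3: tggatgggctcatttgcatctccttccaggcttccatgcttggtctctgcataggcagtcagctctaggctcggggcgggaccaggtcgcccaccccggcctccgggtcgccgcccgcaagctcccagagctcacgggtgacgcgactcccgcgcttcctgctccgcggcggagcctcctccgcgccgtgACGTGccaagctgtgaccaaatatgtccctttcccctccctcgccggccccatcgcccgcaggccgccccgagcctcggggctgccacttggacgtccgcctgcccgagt
P4ha2: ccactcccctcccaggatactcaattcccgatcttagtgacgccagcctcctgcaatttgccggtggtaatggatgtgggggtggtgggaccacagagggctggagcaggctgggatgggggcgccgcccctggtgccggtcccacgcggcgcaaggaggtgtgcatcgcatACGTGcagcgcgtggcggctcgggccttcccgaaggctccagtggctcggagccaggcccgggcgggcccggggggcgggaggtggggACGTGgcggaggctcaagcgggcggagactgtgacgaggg
Pfkm: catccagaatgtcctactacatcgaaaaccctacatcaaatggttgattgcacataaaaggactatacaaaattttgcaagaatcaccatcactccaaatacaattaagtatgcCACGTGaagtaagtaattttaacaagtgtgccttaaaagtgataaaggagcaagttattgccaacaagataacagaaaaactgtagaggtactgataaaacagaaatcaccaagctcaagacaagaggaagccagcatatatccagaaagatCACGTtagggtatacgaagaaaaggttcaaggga
In the cell cycle windows the capitals mark TTCCCGC on either strand, the core of a site for E2F factors.
Cdc6: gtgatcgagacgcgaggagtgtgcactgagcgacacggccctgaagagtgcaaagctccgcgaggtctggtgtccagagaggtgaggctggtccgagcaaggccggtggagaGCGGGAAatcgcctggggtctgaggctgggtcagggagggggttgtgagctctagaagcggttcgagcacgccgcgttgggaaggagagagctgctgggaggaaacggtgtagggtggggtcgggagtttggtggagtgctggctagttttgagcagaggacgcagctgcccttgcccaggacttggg
Mcm7: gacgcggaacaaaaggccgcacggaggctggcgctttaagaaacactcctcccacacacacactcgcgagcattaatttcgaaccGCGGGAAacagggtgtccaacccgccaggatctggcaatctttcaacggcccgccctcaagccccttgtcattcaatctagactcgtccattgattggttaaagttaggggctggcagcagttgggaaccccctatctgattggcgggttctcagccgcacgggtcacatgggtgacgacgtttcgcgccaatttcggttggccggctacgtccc
The windows lie at chr7:138909457-138909756 (minus strand), chr2:11553880-11554179 (minus), chr11:54100674-54100973 (plus), chr15:98092339-98092638 (plus), chr11:98907901-98908200 (plus) and chr5:138171834-138172133 (minus). Of the 45 genes of the glycolysis, HIF target and oxygen sensing lists that rose, 41 had a window, and ACGTG was in 22 of these (53.7%). It was in 26.6% of the windows of all genes tested and in 19.7% of all 27025 windows. Of the 48 replication and mitosis genes that fell, 41 had a window and TTCCCGC was in 11 (26.8%), beside 8.88% for all genes tested and 4.66% for all windows. All 11 are replication genes, and no window of a mitosis gene that fell held TTCCCGC. A match is a stretch of letters and not a measured binding site. The lists were made of genes already known for these programs, so the shares describe the lists and not the changes seen here. Members that did not change were not set beside them.

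Among the genes of glucose breakdown, Aldoc, an aldolase, was at 217 to 292 CPM (median 258) in Tfh2_6e4 and 12.5 to 34.8 CPM (median 20.8) in Tfh2_1e4. Its log2 fold change was 3.56 ± 0.16 (adjusted p = 8.27e-23), and all 6 libraries of one group lay above all 6 of the other. Pfkm, the muscle form of phosphofructokinase, was at 17.6 to 25.7 CPM (median 20.6) in Tfh2_6e4 and 3.57 to 6.76 CPM (median 5.17) in Tfh2_1e4, with no overlap (log2 fold change 2.05, adjusted p = 1.20e-12). Pfkfb3, which makes the activator of phosphofructokinase, was at 62 to 88.3 CPM (median 71) in Tfh2_6e4 and 15.4 to 25.3 CPM (median 24.1) in Tfh2_1e4, also with no overlap (log2 fold change 1.74, adjusted p = 1.48e-14). Pdk1, a kinase that inhibits pyruvate dehydrogenase, likewise rose by 1.66 on the log2 scale (adjusted p = 2.02e-16). In the pentose phosphate branch 1 of 7 genes rose (14.3%) and 2 fell (28.6%), with a median of -0.30; over all genes tested 22.3% rose and 20.7% fell.

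Of the HIF targets, Adm, the gene of the vasodilator peptide adrenomedullin, was at 15.1 to 38.3 CPM (median 24.7) in Tfh2_6e4, against 0 to 0.589 CPM (median 0.104) in Tfh2_1e4. Some Tfh2_1e4 libraries held no Adm count, with 1079 counts over the group in Tfh2_6e4 and 11 in Tfh2_1e4 (log2 fold change 6.94 ± 0.47, adjusted p = 1.74e-16). The log2 fold change of Adm was 7.68 without Tfh2_1e4 replicate 2 and 6.64 without Tfh2_1e4 replicate 6. Vldlr, a lipoprotein receptor, was at 43.2 to 76.9 CPM (median 55.1) in Tfh2_6e4 and 0.883 to 2.12 CPM (median 1.3) in Tfh2_1e4, far apart (log2 fold change 5.36 ± 0.22, adjusted p = 1.23e-23). Ndrg1, a stress-responsive gene used as a hypoxia marker, was at 211 to 284 CPM (median 238) in Tfh2_6e4 and 6.02 to 16.1 CPM (median 11.5) in Tfh2_1e4. It did not overlap between the groups either (log2 fold change 4.4 ± 0.17, adjusted p = 9.95e-25). P4ha2, a collagen prolyl hydroxylase subunit, rose by 3.68, Vegfa, the vascular growth factor, by 2.75, and the mitophagy receptors Bnip3 and Bnip3l by 2.38 and 1.64 (largest adjusted p of the 4, 3.11e-16). The member that fell was Plod2, a collagen lysyl hydroxylase (log2 fold change -0.32, adjusted p = 0.0179).

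The oxygen sensors themselves were among the genes that rose. Egln3, a prolyl hydroxylase that is also a HIF target, was at 424 to 500.5 CPM (median 446) in Tfh2_6e4 and 119 to 164 CPM (median 153) in Tfh2_1e4. Egln1, the main hydroxylase of HIF-1, was at 217 to 283 CPM (median 225) in Tfh2_6e4 and 63.8 to 94.5 CPM (median 86.7) in Tfh2_1e4. Neither gene overlapped between the groups, and their log2 fold changes were 1.64 ± 0.09 and 1.52 ± 0.12 (adjusted p = 9.89e-20 and 3.05e-14). Hif1a, the regulated subunit of HIF-1, rose at the RNA level by 1.21 ± 0.12 (adjusted p = 3.42e-11), and Vhl, which recognises hydroxylated HIF, by 1.23 ± 0.13 (adjusted p = 3.41e-11). RNA levels do not show HIF protein, which is controlled by its breakdown.

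**Figure D2:**
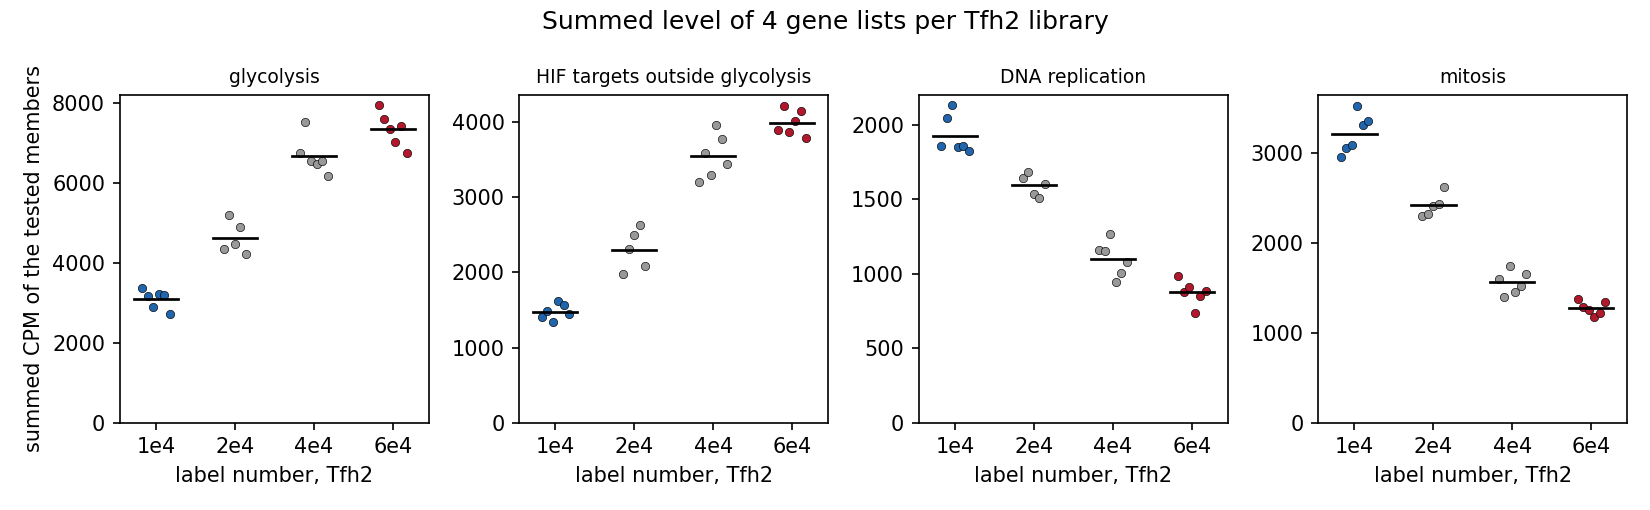
Summed CPM of the tested members of 4 gene lists in each Tfh2 library (points) by label number, with the group mean as a line and the axis starting at 0. Glycolysis genes reached 6750 to 7950 CPM at 6e4 against 2730 to 3360 CPM at 1e4, while mitosis genes were at 1180 to 1370 CPM at 6e4 against 2960 to 3530 CPM at 1e4.

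Cell division genes were lower in Tfh2_6e4. Of 25 tested DNA replication genes 24 fell and none rose (20.7% of all genes fell), and all 24 mitosis genes tested fell, with median log2 fold changes of -1.32 and -1.38. The replication genes summed to 739 to 982 CPM in Tfh2_6e4 and 1820 to 2130 CPM in Tfh2_1e4. Gins2 was the replication gene that did not pass (log2 fold change -1.18, adjusted p = 0.0646), although it passed in 9 of the other fits, DESeq2's and limma-voom's among them. Cdc6, which loads the MCM helicase onto origins, was at 5.86 to 9.95 CPM (median 8.58) in Tfh2_6e4 and 29 to 45.5 CPM (median 37.5) in Tfh2_1e4, without overlap (log2 fold change -2.16 ± 0.18, adjusted p = 1.71e-13). Mcm5, a subunit of that helicase, was at 17.1 to 36.3 CPM (median 27.4) in Tfh2_6e4 and 90.3 to 131 CPM (median 109) in Tfh2_1e4. It was lower in every Tfh2_6e4 library (log2 fold change -2.07 ± 0.16, adjusted p = 1.08e-14). The flap endonuclease gene Fen1 fell by 2.36, the polymerase gene Pole by 2.01 and the helicase gene Mcm7 by 1.22 on the log2 scale (largest adjusted p of the 3, 9.36e-08).

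In nucleotide synthesis 12 of 22 tested genes fell (54.5%) and 3 rose (13.6%), beside 20.7% and 22.3% of all genes tested. Tyms, which makes thymidylate, was at 1.77 to 6.29 CPM (median 3.25) in Tfh2_6e4 and 21.8 to 31 CPM (median 25.3) in Tfh2_1e4. Rrm2, the regulated subunit of ribonucleotide reductase, was at 3.8 to 12.6 CPM (median 6.36) in Tfh2_6e4 and 41.2 to 58.2 CPM (median 47.9) in Tfh2_1e4. Both were among the 10 largest falls named for the comparison, with no overlap and log2 fold changes of -2.75 ± 0.23 and -2.75 ± 0.21 (adjusted p = 1.99e-13 and 7.13e-15). Thymidine kinase Tk1 fell by 2.37 (adjusted p = 3.55e-12). Adssl1, the muscle form of adenylosuccinate synthase, rose by 3.1 (adjusted p = 3.77e-10), from low levels in both groups.

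In mitosis, Birc5, the survivin subunit of the chromosomal passenger complex, was at 39.8 to 79.7 CPM (median 45.7) in Tfh2_6e4 and 161 to 200.4 CPM (median 184) in Tfh2_1e4. Plk1, a kinase that drives entry into and exit from mitosis, was at 21.9 to 35.3 CPM (median 28.5) in Tfh2_6e4 and 67.5 to 108 CPM (median 84.7) in Tfh2_1e4. Both groups were separate for both genes, with log2 fold changes of -1.82 ± 0.15 and -1.64 ± 0.16 (adjusted p = 4.45e-14 and 1.32e-11). Kif20a, a mitotic kinesin, fell by 2.17, Espl1, the separase that cuts cohesin, by 1.69, and the proliferation marker Mki67 by 1.56 (largest adjusted p, 3.88e-04). Of 19 genes of the G1 phase, 11 fell (57.9%) and 7 rose (36.8%), beside 20.7% and 22.3% of all genes tested. Those that fell included the repressive E2F genes E2f7 (log2 fold change -2.53) and E2f8 (-2.06) and the CDK4/6 inhibitor Cdkn2c (-2.2). Cdkn1a, the CDK inhibitor p21, was the list member with the largest rise, at 413 to 510.2 CPM (median 461) in Tfh2_6e4 and 70.3 to 93.8 CPM (median 85.5) in Tfh2_1e4. Its groups did not overlap (log2 fold change 2.44 ± 0.13, adjusted p = 2.15e-20).

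Genes of the helper T cell fates moved in both directions. Of 31 tested TFH-associated genes 12 rose (38.7%) and 9 fell (29%), with a median log2 fold change of 0.16. Of 18 TH17-associated genes 7 rose (38.9%) and 8 fell (44.4%), with a median of -0.30. Over all genes tested 22.3% rose and 20.7% fell. Maf, the gene of c-Maf, was at 506 to 686 CPM (median 582) in Tfh2_6e4 and 699.7 to 898 CPM (median 769) in Tfh2_1e4. It was lower in every Tfh2_6e4 library, by a small step (log2 fold change -0.39 ± 0.10, adjusted p = 0.00142). Cxcr5, the receptor that leads TFH cells to follicles, was at 3.68 to 11 CPM (median 4.65) in Tfh2_6e4 and 11.8 to 20 CPM (median 14.6) in Tfh2_1e4, with a narrow gap between the groups (log2 fold change -1.43 ± 0.26, adjusted p = 1.66e-05). Tox, a factor of TFH and chronically stimulated cells, fell by 2.13, and Angptl2, a secreted angiopoietin-like protein, by 2.69 (adjusted p = 2.37e-15 and 1.94e-19). Rgs16, a regulator of G protein signalling, fell by 2.33 (adjusted p = 1.32e-12).

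Other TFH-associated genes rose. Icos, the costimulatory receptor that TFH cells need, was at 64.7 to 110.4 CPM (median 91.8) in Tfh2_6e4 and 31.2 to 56.5 CPM (median 37.9) in Tfh2_1e4, without overlap (log2 fold change 1.22 ± 0.15, adjusted p = 6.48e-09). Izumo1r, the folate receptor 4 gene, was at 51.5 to 69.8 CPM (median 57.6) in Tfh2_6e4 and 8.96 to 19 CPM (median 11.3) in Tfh2_1e4, further apart (log2 fold change 2.24 ± 0.14, adjusted p = 2.20e-17). Ascl2, a factor that induces Cxcr5, had 101 counts over the 6 Tfh2_6e4 libraries and 1 count over the 6 Tfh2_1e4 libraries, a ratio of 136 with a 95% counting interval of 23.8 to 5420. Il21, the TFH cytokine, was at 51 to 75.6 CPM (median 62.1) in Tfh2_6e4 and 60.3 to 85 CPM (median 66.6) in Tfh2_1e4. These ranges overlapped and the test was not passed (log2 fold change -0.15 ± 0.11, adjusted p = 0.287). Bcl6, the master factor of TFH cells, was too low to test, with 20 counts in Tfh2_6e4 and 13 in Tfh2_1e4.

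Of the TH17 genes, Il17a was at 34.2 to 71.8 CPM (median 46.2) in Tfh2_6e4 and 129 to 259.8 CPM (median 159) in Tfh2_1e4. Il17f, its neighbour, was at 80 to 103 CPM (median 89.3) in Tfh2_6e4 and 144 to 196 CPM (median 155) in Tfh2_1e4. Both cytokine genes fell with no overlap (log2 fold changes -1.8 ± 0.21 and -0.87 ± 0.12, adjusted p = 1.45e-09 and 1.21e-07). Ccr6, the TH17 chemokine receptor, was at 30.6 to 55.8 CPM (median 38.4) in Tfh2_6e4 and 149.7 to 173 CPM (median 167) in Tfh2_1e4. It too was lower in all 6 libraries (log2 fold change -2.03 ± 0.14, adjusted p = 7.49e-17), as was its ligand Ccl20 (-3.93 ± 0.61, adjusted p = 1.31e-06). The log2 fold change of Ccl20 was -4.63 without Tfh2_6e4 replicate 3 and -3.36 without Tfh2_1e4 replicate 6. Il24, a cytokine of the interleukin 10 family, rose, at 12.4 to 60.4 CPM (median 34.9) in Tfh2_6e4 and 0.294 to 2.94 CPM (median 1.83) in Tfh2_1e4. The groups were separate although the Tfh2_6e4 libraries spread widely (log2 fold change 4.44 ± 0.40, adjusted p = 8.62e-13). Il10 itself rose by 1.51 (adjusted p = 4.50e-10).

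**Figure D3:**
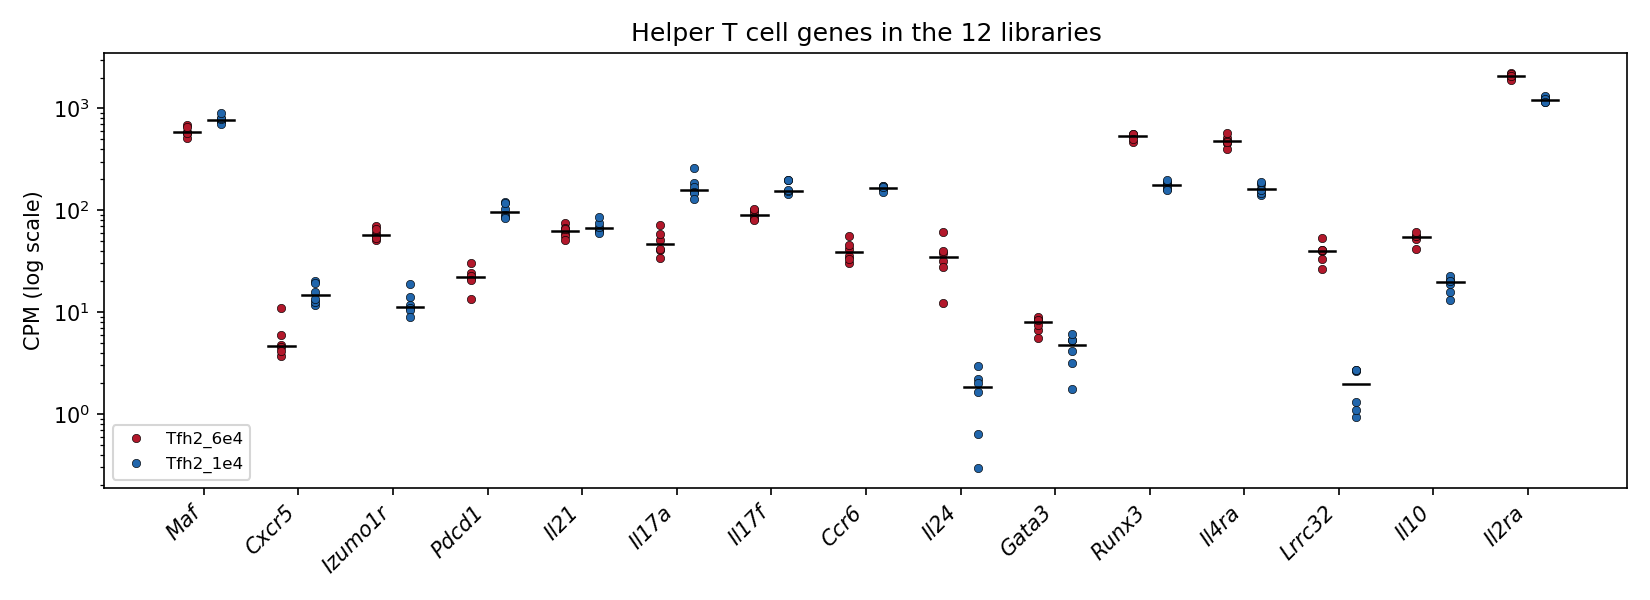
CPM on a log axis of 15 helper T cell genes in the 6 Tfh2_6e4 libraries (left of each pair) and the 6 Tfh2_1e4 libraries (right), with the median as a line. Maf, Il17a, Il17f, Ccr6, Pdcd1 and Cxcr5 are lower and Izumo1r, Il24, Runx3, Il4ra, Lrrc32, Il10 and Il2ra higher in Tfh2_6e4 without overlap, while Il21 and Gata3 overlap.

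TH1- and TH2-associated genes also split, with 9 of 17 tested higher (52.9%) and 4 lower (23.5%), beside 22.3% and 20.7% of all genes tested. Il12rb2, the signalling chain of the interleukin 12 receptor, was at 4.27 to 13.1 CPM (median 7.79) in Tfh2_6e4 and 0 to 1.35 CPM (median 0.443) in Tfh2_1e4. It was near 0 at the lower end only (log2 fold change 3.82 ± 0.47, adjusted p = 5.15e-09). Runx3, a factor of TH1 and CD8 cells, was at 472 to 559.7 CPM (median 538) in Tfh2_6e4 and 159 to 198 CPM (median 177) in Tfh2_1e4, and Il4ra, the interleukin 4 receptor, at 401 to 569.6 CPM (median 472) in Tfh2_6e4 and 139.7 to 188 CPM (median 160.2) in Tfh2_1e4. Both rose with no overlap, by 1.58 ± 0.10 and 1.56 ± 0.11 (adjusted p = 7.99e-18 and 1.79e-16), while the chemokine gene Ccl4 fell by 2.66 (adjusted p = 7.96e-07). The log2 fold change of Ccl4 was -3.44 without Tfh2_6e4 replicate 1 and -2.51 without Tfh2_6e4 replicate 2. Tbx21, the TH1 master factor, was near 0 in both groups and did not pass (log2 fold change -0.87, adjusted p = 0.323). Gata3, the TH2 master factor, was at 5.56 to 8.87 CPM (median 7.91) in Tfh2_6e4 and 1.76 to 6.13 CPM (median 4.7) in Tfh2_1e4, with overlap. Its call (log2 fold change 0.81 ± 0.28, adjusted p = 0.0171) was lost without Tfh2_1e4 replicate 3 (adjusted p = 0.0667) and with the mitochondrial share as a covariate (adjusted p = 0.0972). Il4 had no count in any of the 12 libraries, which allows up to 0.0696 CPM in Tfh2_6e4 and 0.0517 CPM in Tfh2_1e4. Ifng had no count in Tfh2_6e4 and 9 counts in 1 library of Tfh2_1e4.

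Of 15 tested genes linked to regulatory T cells 9 rose (60%) and 3 fell (20%), with a median log2 fold change of 0.99. Over all genes tested 22.3% rose and 20.7% fell. Lrrc32 encodes GARP, the surface protein that holds latent TGF-beta. It was at 26.6 to 53.5 CPM (median 40.1) in Tfh2_6e4 and 0.934 to 2.73 CPM (median 1.99) in Tfh2_1e4, without overlap (log2 fold change 4.36 ± 0.27, adjusted p = 4.54e-18). The costimulatory receptor genes Tnfrsf9 (4-1BB) and Tnfrsf18 (GITR) were at 259 to 399 CPM (median 376) and 317 to 436 CPM (median 370.4) in Tfh2_6e4, against 16.4 to 25.1 CPM (median 19) and 60 to 67.9 CPM (median 63.3) in Tfh2_1e4. Both were separate between the groups (log2 fold changes 4.14 ± 0.20 and 2.54 ± 0.11, adjusted p = 1.13e-21 and 9.43e-23). Ikzf2, the gene of Helios, rose by 2.36, and Il2ra, the high-affinity chain of the interleukin 2 receptor, by 0.76 (adjusted p = 6.72e-11 and 1.14e-09). Foxp3, the defining factor of these cells, was too low to test and lay on the other side. It had 1 count over the Tfh2_6e4 libraries and 62 counts over the Tfh2_1e4 libraries, found in all 6 of them, a ratio of 46.1 for Tfh2_1e4 over Tfh2_6e4 with a 95% counting interval of 7.97 to 1850.

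Of 10 tested co-inhibitory receptors and ligands 4 rose and 4 fell (40% each), beside 22.3% and 20.7% of all genes tested. Of 12 costimulatory receptors 8 rose (66.7%) and 1 fell (8.33%). The difference between the lists was not tested. Beside Pdcd1, the genes that fell included Pdcd1lg2, a ligand of PD-1, by 2.66, and Cd96, a receptor for CD155, by 1.87 (adjusted p = 4.62e-07 and 4.70e-08). Without Tfh2_6e4 replicate 6 the log2 fold change of Pdcd1lg2 was -3.47, and without Tfh2_6e4 replicate 1 it was -2.42. Vsir, the gene of the checkpoint protein VISTA, was at 191 to 287 CPM (median 222) in Tfh2_6e4 and 62.2 to 92.5 CPM (median 78.8) in Tfh2_1e4, separate and higher (log2 fold change 1.55 ± 0.11, adjusted p = 1.51e-15). Ctla4 rose by 0.69 and Tnfrsf4, which encodes OX40, by 1.16 (adjusted p = 3.61e-04 and 2.64e-11). Slamf7, a SLAM family receptor of cytotoxic and activated lymphocytes, was at 27.8 to 60.7 CPM (median 51.2) in Tfh2_6e4 and 0 to 1.32 CPM (median 0.66) in Tfh2_1e4. It was close to silent at the lower end (log2 fold change 6.18 ± 0.37, adjusted p = 1.69e-18).

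Cytokine receptors and their signal carriers were mostly higher in Tfh2_6e4. Of 22 tested receptor genes 12 rose (54.5%) and 2 fell (9.09%), with a median log2 fold change of 0.69. Of 15 STAT, SOCS and Pim genes 13 rose (86.7%) and 1 fell (6.67%), with a median of 1.15. Over all genes tested 22.3% rose and 20.7% fell. Il7r, the receptor for the survival cytokine interleukin 7, was at 254 to 355 CPM (median 286) in Tfh2_6e4 and 81.9 to 119.6 CPM (median 113) in Tfh2_1e4, with no overlap (log2 fold change 1.47 ± 0.14, adjusted p = 2.04e-12). Ifngr1, a chain of the interferon gamma receptor, rose by 1.56 (adjusted p = 4.25e-16). Stat5a, which carries interleukin 2 and 7 signals, was at 158 to 219 CPM (median 202) in Tfh2_6e4 and 62.5 to 79.6 CPM (median 69.7) in Tfh2_1e4, also with no overlap (log2 fold change 1.48 ± 0.13, adjusted p = 4.41e-13). Stat4, which carries interleukin 12 signals, rose by 1.27, and the growth kinases Pim3 and Pim2, which STAT5 induces, by 1.55 and 1.44 (largest adjusted p of the 3, 2.14e-08).

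SMAD response genes, which read out TGF-beta signalling, were lower on balance in Tfh2_6e4: 11 of 18 tested fell (61.1%) and 4 rose (22.2%), with a median log2 fold change of -0.48. Over all genes tested 20.7% fell and 22.3% rose, so the share of rises was that of all genes. Pmepa1, a feedback inhibitor of TGF-beta signalling, was at 172 to 224 CPM (median 184) in Tfh2_6e4 and 616 to 685 CPM (median 644) in Tfh2_1e4. Tgfbi, a matrix protein named for its induction by TGF-beta, was at 0.167 to 4.97 CPM (median 1.9) in Tfh2_6e4 and 16.8 to 23.6 CPM (median 18.6) in Tfh2_1e4. Neither gene overlapped (log2 fold changes -1.75 ± 0.09 and -3.05 ± 0.36, adjusted p = 5.58e-21 and 4.18e-09). Smad7, the inhibitory SMAD, fell by 0.64, the receptor gene Tgfbr1 by 1.93 and Id1, an inhibitor of helix-loop-helix factors, by 2.18 (largest adjusted p of the 3, 2.25e-04). Tgfb3, a ligand gene, was at 37 to 50.8 CPM (median 41.8) in Tfh2_6e4 and 1.28 to 2.87 CPM (median 1.97) in Tfh2_1e4, separate and among the 10 largest rises (log2 fold change 4.45 ± 0.28, adjusted p = 9.07e-18).

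Early response genes, which antigen receptor signals switch on within minutes to hours, fell more often than they rose. Of 20 tested 11 fell (55%) and 3 rose (15%), with a median log2 fold change of -0.66. Over all genes tested 20.7% fell and 22.3% rose. Egr2, a factor of sustained receptor signalling, was at 2.18 to 5.41 CPM (median 3.31) in Tfh2_6e4 and 14.6 to 22.5 CPM (median 17.3) in Tfh2_1e4, with no overlap (log2 fold change -2.24 ± 0.24, adjusted p = 1.60e-10). Its relative Egr3 had 1 count over the Tfh2_6e4 libraries and 85 over the Tfh2_1e4 libraries, a ratio of 63.2 for Tfh2_1e4 over Tfh2_6e4 (95% counting interval 11 to 2520). Nr4a1, a reporter of receptor signal strength, fell by 1.87, with overlapping libraries (adjusted p = 0.00366). Its log2 fold change was -1.3 without Tfh2_1e4 replicate 6. The 3 that rose were Ier3, Fosl2 and Junb. Ier3, a stress-responsive survival gene, was at 191 to 245 CPM (median 227) in Tfh2_6e4 and 17.5 to 25.5 CPM (median 21.5) in Tfh2_1e4, and Fosl2, an AP-1 subunit, at 237 to 309.6 CPM (median 282) in Tfh2_6e4 and 63.1 to 73.7 CPM (median 68.3) in Tfh2_1e4. Both were separate between the groups (log2 fold changes 3.39 ± 0.13 and 2.02 ± 0.13, adjusted p = 1.60e-24 and 7.31e-18).

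Lists of resting and of homing T cell genes were mixed. Of the 21 naive and quiescence genes 9 rose (42.9%) and 3 fell (14.3%). Of 21 tested homing and adhesion genes 8 rose (38.1%) and 6 fell (28.6%), beside 22.3% and 20.7% of all genes tested. The median of each list, 0.14, was close to that of all genes. Pik3ip1, an inhibitor of PI3 kinase, rose by 1.79, the lymph node homing receptor Ccr7 by 1.25, and Itgb7, a gut homing integrin, by 1.35 (largest adjusted p of the 3, 8.18e-12). Txnip, which restrains glucose uptake and is high in resting cells, was at 25 to 129 CPM (median 82.8) in Tfh2_6e4 and 17.2 to 46.1 CPM (median 21.3) in Tfh2_1e4; its ranges overlapped although the test was passed (log2 fold change 1.66 ± 0.42, adjusted p = 0.00105). Gimap7, a small GTPase gene of lymphocyte survival, was among the 10 largest rises (4.28 ± 0.25, adjusted p = 1.48e-18). Ly6c1 was at 214 to 333 CPM (median 276) in Tfh2_6e4 and 5.94 to 9.59 CPM (median 8.08) in Tfh2_1e4, and Ly6a, the gene of Sca-1, at 992 to 1243 CPM (median 1072) in Tfh2_6e4 and 255 to 361 CPM (median 349.5) in Tfh2_1e4. These membrane-anchored surface proteins of the Ly6 family rose by 5.13 ± 0.17 and 1.73 ± 0.09 with no overlap (adjusted p = 5.81e-27 and 8.58e-20); reads of close Ly6 copies may have been shared.

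H2-Ab1, the beta chain of a class II MHC molecule, was at 82 to 102 CPM (median 91.5) in Tfh2_6e4 and 0.727 to 7.47 CPM (median 3.06) in Tfh2_1e4, again far apart (log2 fold change 4.73 ± 0.25, adjusted p = 2.16e-20). Cd74, the invariant chain that class II molecules need, averaged 0.479 ± 0.714 CPM in Tfh2_6e4 and 0.597 ± 0.559 CPM in Tfh2_1e4 (SD, n = 6 each), and H2-Eb1 0.508 ± 0.414 CPM in Tfh2_6e4 and 0.0914 ± 0.224 CPM in Tfh2_1e4, so both of these other class II genes were near 0 beside it. H2-Eb1 did not pass (adjusted p = 0.0942), but it did without Tfh2_1e4 replicate 6 (adjusted p = 0.00612). Of 12 tested genes of class I antigen presentation 5 rose (41.7%) and 1 fell (8.33%). H2-K1 rose by 0.86 (adjusted p = 2.05e-11) and H2-Q7, whose near copies make its count uncertain, by 4.04. Among 18 tested interferon-stimulated genes 8 rose (44.4%) and 3 fell (16.7%). Over all genes tested 22.3% rose and 20.7% fell. Gbp2, a guanylate-binding protein, rose by 1.92 and Ifi47, an immunity-related GTPase, fell by 1.12, each with no overlap (adjusted p = 2.10e-20 and 3.22e-10).

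Of 15 tested enzymes and receptors of nucleotides and lipids outside the cell, Enpp2 among them, 9 rose (60%) and 1 fell (6.67%). Their median log2 fold change was 0.78. Over all genes tested 22.3% rose and 20.7% fell. Entpd1, the gene of CD39, rose by 1.83 from low levels, Enpp1, which breaks down ATP and cyclic GMP-AMP, by 1.4, and Gpr183, an oxysterol receptor that positions cells in follicles, by 1.31 (largest adjusted p of the 3, 0.00268). The gene that fell was Nt5e, which encodes CD73, at 77.1 to 87 CPM (median 82) in Tfh2_6e4 and 153 to 203 CPM (median 160.3) in Tfh2_1e4. CD39 and CD73 act one after the other on ATP, and their genes moved in opposite directions (Nt5e log2 fold change -1.05 ± 0.10, adjusted p = 1.79e-11).

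Structural genes were among the largest falls. Marcksl1, which binds actin and calmodulin at the membrane, was at 2.28 to 5.71 CPM (median 3.67) in Tfh2_6e4 and 25.8 to 47.8 CPM (median 32.2) in Tfh2_1e4. Its relative Marcks was at 8.9 to 18.5 CPM (median 12.4) in Tfh2_6e4 and 61.5 to 96.6 CPM (median 75.9) in Tfh2_1e4. Both fell with no overlap (log2 fold changes -3.14 ± 0.22 and -2.58 ± 0.17, adjusted p = 2.23e-16 and 2.09e-17). Actb, the beta-actin gene, was at 7304 to 10639.5 CPM (median 8326) in Tfh2_6e4 and 16151 to 21950.5 CPM (median 18938) in Tfh2_1e4, separate, with a log2 fold change of -1.14 ± 0.10 (adjusted p = 1.25e-12). The microtubule regulator Stmn1 fell by 1.87 and the nuclear lamina gene Lmnb1 by 1.62 (adjusted p = 3.25e-13 and 4.45e-14). Of 13 tested genes of this list 8 fell (61.5%) and 4 rose (30.8%), beside 20.7% and 22.3% of all genes tested. Other large falls were Pdlim5, an actin-linked scaffold (-2.72), Akap12, a kinase anchor (-2.57), Timp2, an inhibitor of matrix proteases (-2.62), and Zbtb32, a repressor of activated lymphocytes (-2.68), each with no overlap and an adjusted p of 8.30e-10 or less.

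**Figure D4:**
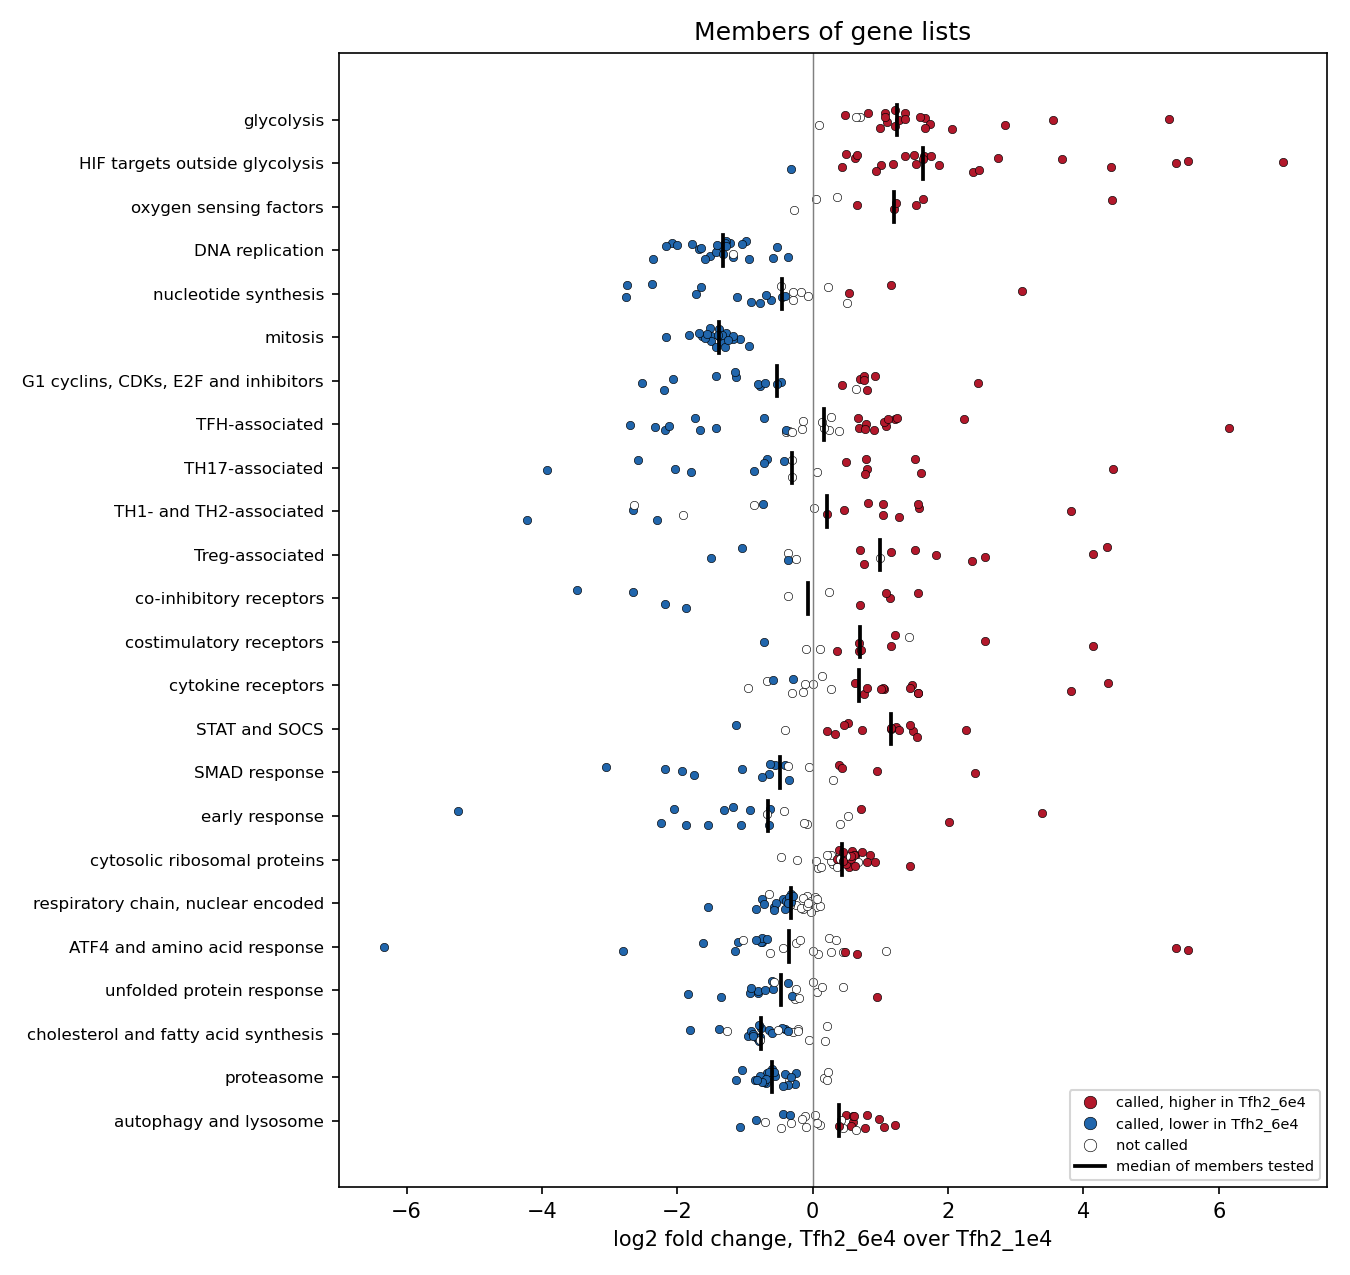
Log2 fold change of Tfh2_6e4 over Tfh2_1e4 for each tested member (points) of 24 gene lists; filled points passed an adjusted p of 0.05 (red higher, blue lower), open points did not, and the bar is the median. All mitosis members lie below 0 and all but Plod2 of the HIF targets above 0, while the helper fate lists spread over both sides.

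Housekeeping programs moved by smaller steps. Over all genes tested 22.3% rose and 20.7% fell. Of 37 tested cytosolic ribosomal protein genes 21 rose and none fell (median log2 fold change 0.43), while 1 fell with libraries scaled by their totals with no composition factor; Rpl22 rose by 0.80 and Rpl3 by 0.85 (adjusted p = 4.81e-11 and 2.86e-10), and reads of their many processed copies add uncertainty. Of 25 proteasome genes 20 fell and none rose (median -0.61), for example Psmd1, a subunit of the regulatory particle, at 87.2 to 109.9 CPM (median 92.6) in Tfh2_6e4 and 184 to 209 CPM (median 203) in Tfh2_1e4. Psmd1 did not overlap between the groups (log2 fold change -1.05 ± 0.11, adjusted p = 2.33e-11). Of 25 genes of cholesterol and fatty acid synthesis 16 fell and none rose (median -0.77). Cyp51, which demethylates lanosterol, was at 59.8 to 82 CPM (median 69.1) in Tfh2_6e4 and 166 to 204 CPM (median 183) in Tfh2_1e4, separate and lower (log2 fold change -1.39 ± 0.10, adjusted p = 3.65e-15), and Hmgcs1, the synthase before the rate-limiting step, fell by 0.95 (adjusted p = 2.65e-10).

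Of 20 genes of the unfolded protein response 11 fell (55%) and 1 rose (5%), beside 20.7% and 22.3% of all genes tested. Hspa5, the main chaperone of the endoplasmic reticulum, was at 241 to 263 CPM (median 248) in Tfh2_6e4 and 423 to 522 CPM (median 481) in Tfh2_1e4, separate and lower (log2 fold change -0.92 ± 0.08, adjusted p = 2.32e-13). Creld2 and Manf, secreted factors induced by stress in that compartment, fell (log2 fold changes -1.84 and -1.35), and the sensor Atf6 was the member that rose (0.96; largest adjusted p of the 3, 1.63e-05). Of 26 tested genes of the ATF4 and amino acid response 10 fell (38.5%) and 4 rose (15.4%). Those that fell included the serine synthesis enzyme Phgdh (-1.62), the mitochondrial one-carbon enzyme Mthfd2 (-1.15) and the neutral amino acid transporter Slc1a4 (-2.8; largest adjusted p of the 3, 1.14e-07). Chac1, a glutathione-degrading ATF4 target, had no count in Tfh2_6e4 and 75 counts over the Tfh2_1e4 libraries. That is 18.6-fold lower in Tfh2_6e4 when 0 is read as 3 counts over the group. The lower limit of the 95% counting interval was 14.7-fold.

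Of 34 tested nuclear genes of the respiratory chain 16 fell and none rose (median -0.32), with the complex subunit Ndufa4 lowest at -1.55 (adjusted p = 1.67e-11). Transcripts of the mitochondrial genome split: COX1 rose by 0.66, ND1 fell by 0.67 and ND2 fell by 0.70 (largest adjusted p, 0.00252), and 5 of the 8 tested did not pass; with the mitochondrial rRNA share as a covariate 5 fell, and the log2 fold change of ND2 was -1.10. Among the 27 autophagy and lysosome genes 11 rose (40.7%) and 4 fell (14.8%), beside 22.3% and 20.7% of all genes tested. The cholesterol carrier Npc2 was at 571 to 669 CPM (median 600.0) in Tfh2_6e4 and 231 to 293 CPM (median 270.1) in Tfh2_1e4. The protease Ctss was at 49.9 to 70.5 CPM (median 54.3) in Tfh2_6e4 and 101 to 130.0 CPM (median 119.7) in Tfh2_1e4. Both were separate, in opposite directions (log2 fold changes 1.21 ± 0.08 and -1.07 ± 0.11, adjusted p = 2.72e-16 and 6.29e-11). In the Bcl2 family 5 of 15 rose (33.3%) and 4 fell (26.7%), not far from the 22.3% and 20.7% of all genes tested. The death activator Bcl2l11, which encodes BIM, was at 63.7 to 90.6 CPM (median 81.3) in Tfh2_6e4 and 13.8 to 23.7 CPM (median 19.5) in Tfh2_1e4, with no overlap (log2 fold change 2.03 ± 0.16, adjusted p = 1.55e-14). Bcl2a1b, a survival gene whose near copies make its count uncertain, fell by 2.6 (adjusted p = 5.21e-07). The peroxidase gene Gpx1 fell by 1.16 and Prdx5 rose by 1.0, and in polyamine metabolism Smox, a spermine oxidase, rose by 1.87 while Odc1, the first enzyme of synthesis, fell by 0.73 (largest adjusted p of the 4, 6.77e-07).

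The libraries at 2e4 and 4e4 belong to neither end of the range, so they give a second look at the same genes with no library in common. Tfh2_4e4 replicate 3 and Tfh2_2e4 replicate 6 carried genes that were high in TfhA_4e4, and values are given with and without them. Tfh2_4e4 over Tfh2_2e4 had 1475 genes past the threshold (13.0%), with 862 higher (7.59%) and 613 lower (5.40%). Of the 4889 genes called between the ends, 4587 (93.8%) had the same sign in Tfh2_4e4 over Tfh2_2e4, beside 76.9% of all genes tested and 64.1% of genes not called. That share was also 93.8% without the 2 libraries named. The 1393 genes called in both were 28.5% of the list for the ends and 94.4% of the list for the intermediate numbers, and 3 of them had opposite signs. These were Nrp2, a semaphorin receptor (-1.59 between the ends, 2.05 between 4e4 and 2e4), Fermt1, an integrin adaptor (-1.87 and 2.26), and A930015D03Rik (1.97 and -2.85). Nrp2 lost its call between the ends without any 1 of 7 libraries (adjusted p = 0.0518 to 0.0883), and A930015D03Rik without Tfh2_6e4 replicate 2 (adjusted p = 0.098). Both also lost it with no filter on low counts (adjusted p = 0.0755 for Nrp2 and 0.0578 for A930015D03Rik) and with the mitochondrial rRNA share as a covariate (0.122 for Nrp2 and 0.0604 for A930015D03Rik), and A930015D03Rik with limma-voom (adjusted p = 0.0628).

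The means of the 4 groups ran in order from 1e4 to 6e4, up or down, for 3601 of the 4889 genes (73.7%). The share was 39.8% of all genes and 14.2% of genes not called. This order uses the same end libraries that gave the calls. A gap between the ends makes an ordered run more likely, so no conclusion is drawn from the difference in shares. Median log2 fold changes of the 2538 genes that rose were 0.91 between the ends and 0.41 between 4e4 and 2e4, and those of the 2351 that fell were -0.79 and -0.345. The marker genes passed in Tfh2_4e4 over Tfh2_2e4 as well, with log2 fold changes of 2.11 for Slc2a3 (adjusted p = 8.05e-14), 2.69 for Selenbp1 (adjusted p = 5.97e-10) and 2.59 for Enpp2 (adjusted p = 1.08e-07). Sox4 and Pdcd1 had log2 fold changes of -1.09 and -1.06 (adjusted p = 1.18e-05 and 1.46e-05). Of the lists, 20 of 24 mitosis genes, 16 of 25 replication genes, 14 of 22 glycolysis genes and 13 of 23 HIF targets passed there.

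**Figure D5:**
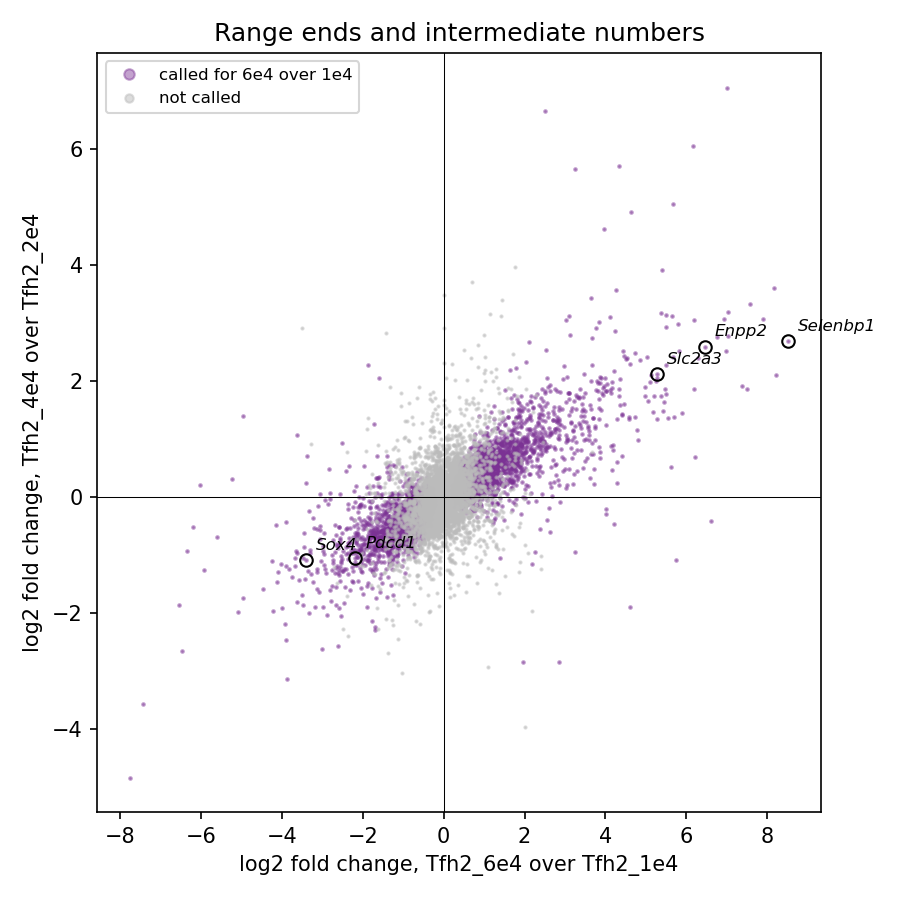
Log2 fold change of Tfh2_4e4 over Tfh2_2e4 (y) against that of Tfh2_6e4 over Tfh2_1e4 (x) for the 11357 genes tested, with the 4889 genes called between the ends in purple, the others in grey and the 5 marker genes circled. Most purple points, 93.8%, have the same sign on both axes; the 2 contrasts share no library.

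The replicate numbers run from 1 to 6 in each group, and the contrast was compared between replicates 4 to 6 and 1 to 3. None of 10239 genes tested passed for a difference between the ranges in edgeR, and 348 (3.4%) had an unadjusted p under 0.05. The contrast called 3686 genes with replicates 4 to 6 and 3472 with replicates 1 to 3.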

How the data were processed

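RNA of sorted CD4 T cells was read as 3′ mRNA libraries (Lexogen), which count the 3′ ends of transcripts, so a count does not scale with gene length. The authors deposited raw counts per gene identifier, made with STAR 2.7.2b, featureCounts 1.6.4 and mm10 per the submitters' processing notes. Strand setting and treatment of reads with several matches are not given in the sources used here, so overlapping, antisense and copied genes are uncertain. Of 27179 identifiers 25275 were matched to a symbol in the RefSeq GRCm38.p6 table.

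One model for the 6 groups took in all 34 libraries (edgeR 4.0.16 in R 4.3.3), with TMM scaling, genes kept by filterByExpr, two-sided quasi-likelihood F-tests and Benjamini-Hochberg adjustment over the 11357 genes tested (threshold 0.05). Adjusted p-values in the text are from this fit, and a gene is said to rise, fall or be called only where it passed. Errors of log2 fold changes are standard errors and other errors are SD over libraries. CPM values use normalized totals. Counting intervals (95%) and the floor of 3 counts cover counting error only, since the libraries have no molecular identifiers known here. Sequences are from RefSeq's promoter table, GRCm38.p6.

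The comparison, its members, the gene lists and the rule for naming genes were chosen with earlier results of these data known. The rule names the 5 markers, 16 lineage genes, the 10 largest rises and falls (mean log2 CPM of at least 3, no overlap, no predicted genes) and up to 4 called members per list with mean log2 CPM of at least 1; not all are printed, and a few are not reported here. Outside the rule, Pfkfb4, Eno1, Pgk1, Vegfa, Plod2, Mcm7, Gins2, Mki67, Il10, Ctla4, Smad7, Pmepa1, Tox, Nt5e, H2-Eb1, Cd74, Actb, Ascl2, Egr3, Chac1, Junb, Nrp2, Fermt1 and A930015D03Rik were named after their values were seen. Same-numbered libraries of the groups correlated above 0.1 in 1 of 6 pairs after removal of group means, so they were not treated as pairs. Alternatives were RLE scaling, library totals without the 2 abundant identifiers, DESeq2 1.42.0, limma-voom (limma 3.58.1), other filters, covariates, a replicate block and leaving out libraries.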

Additional observations from a re-analysis of the deposited data

Results flagged for a closer look

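Values far from the other 5 libraries of their group, by Dixon's test at a critical ratio of 0.625, were found in 17 of 300 gene and group pairs (150 genes), where chance flags about 1 in 20. Of these, 6 were in Tfh2_1e4 replicate 6 and 4 in Tfh2_6e4 replicate 1.

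In Tfh2_6e4 replicate 1, Cxcr5 was at 11 CPM (others 3.68 to 6), Ccl4 at 4.29 CPM (0.574 to 1.46), Mthfd2 at 59.5 CPM (45.1 to 50.4) and Ctss at 70.5 CPM (49.9 to 55.6). Rpl3 was at 118 CPM in Tfh2_6e4 replicate 2 (86 to 96.4). In Tfh2_6e4 replicate 3, Ccl20 was at 4.68 CPM (0.335 to 1.77) and Pdlim5 at 42.1 CPM (21.9 to 29.4). P4ha2 was at 41.9 CPM in Tfh2_6e4 replicate 4, below the others (60.4 to 63.8). In Tfh2_6e4 replicate 6, Tbx21 was at 1.77 CPM (0.293 to 0.718) and Cd74 at 1.9 CPM (0 to 0.348).

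In Tfh2_1e4 replicate 6, Ccl20 was at 65.1 CPM (others 11.6 to 22.9), Ctla4 at 149 CPM (85.6 to 105), Nr4a1 at 40 CPM (5.69 to 12.9), Txnip at 46.1 CPM (17.2 to 26.7) and H2-Eb1 at 0.548 CPM (0 in the others), while Tnfrsf4 was low at 77.8 CPM (107 to 109). Il7r was low in Tfh2_1e4 replicate 3, at 81.9 CPM (109 to 120).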

How the results depend on the processing

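The number of genes called was 4526 to 5224 over the other scalings, tools, filters and covariates at the same threshold, and 4619 to 4826 with 1 library left out, beside 4889. It was 3772 at an adjusted p of 0.01 and 1901 when tested against a fold of 1.5, since both set a harder criterion. A fit with replicate number as a block called 5224 genes; the numbers are not known to pair the samples (same-number correlations -0.00722 to 0.103, 2 of 6 libraries correlating best with their own number), and of the genes named in the report the block changed the call of Gins2 alone (adjusted p = 0.045). The difference in mitochondrial rRNA share, 1.78 percentage points, was 0.46 as a share of all counts (exact permutation p = 0.372) and 1.25 to 2.12 with 1 library left out, where it missed 0.05 for 8 of 12 libraries. The sign turned for Pfkfb4 (log2 fold change -0.0242 with library totals, taken without the 2 abundant identifiers and with no composition factor, -0.0585 with limma-voom, and -0.125 to 0.265 with 1 library left out) and for Cd74 (-1.54 to 0.238 with 1 library left out, highest without Tfh2_1e4 replicate 5), neither of which passed in any of these fits; the cause was not tested. Eno1 and Pgk1 were at 0.30 and 0.28 without Tfh2_6e4 replicate 3, beside 0.64 and 0.69. The same-sign share of 93.8% was 91.7% to 94% with 1 library left out and 95.1% for genes called by more than 2-fold. Of 2616 list counts recomputed 2570 stayed within 1.5 times, the others being counts of 8 or fewer, such as the 4 lysosome genes that fell (8 with the same totals). Depth limits genes under about 1 CPM, such as Bcl6, Foxp3 and Ifng.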
